A study of Mus musculus and synthetic construct with 21 samples.

Results

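The elements described here are 25 designed oligos, 1 at each of 25 mouse genomic sites, whose names end in dr1. They were taken, by that name, from a reporter pool of 1350 elements, pool 2 of 7 in the study. Each was set against the native element of its site, in which both site numbers of the name are the same, and against the element of its site whose name ends in mut. The ending dr1 is read as the same uniform DR1 motif put at every site, and mut as a mutated motif. The names do not spell out either sequence, so both readings rest on the names.

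The study tested how PPARγ motifs and their surroundings relate to PPARγ binding and enhancer activity, with massively parallel reporter assays in 3T3-L1 cells, a mouse line of pre-adipocytes that can be turned into adipocytes. Each element drove a transcript with a barcode, and the RNA barcodes were counted 16 h after transfection beside the same barcodes in the plasmid library. The cells carried no labelled genetic change, and the growth protocol in the labels has them induced after confluence with insulin at 1.7 µM, IBMX at 0.5 mM and dexamethasone at 1 µM, IBMX being an inhibitor of phosphodiesterases. Pool 2 had 1 RNA library from these cells, with 17716666 counts, and 1 plasmid library, with 46101162 counts.

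The dr1, mut and native elements share that pair of libraries, the treatment and the cells, and differ only in the element. The elements were carried on transfected plasmids, so they were not measured at their own place in the chromosomes. The tables held barcode counts and no cellular genes, so the cell type was not checked against markers. With 1 library of each kind, every spread and p-value is over sites or over barcodes and covers no variation between cultures.

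PPARγ, a nuclear receptor, is the main switch by which pre-adipocytes become fat cells. It binds DNA as a dimer with RXR, on a direct repeat of a hexamer with a single base between the copies, called DR1. PPARγ takes the first hexamer and also touches the bases before it, while RXR takes the second, and natural sites often depart from the perfect repeat.

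The names of the native elements hold a motif of 16 bases for each site, and it was compared with the DR1 consensus AGGTCANAGGTCA, in which N is the spacer. Each of the 25 motifs matched best with 3 bases before the first hexamer. None matched the consensus in full: 3 motifs had 2 mismatches, 12 had 3, 8 had 4 and 2 had 5. The motifs are shown because the mismatches are what dr1 removes, if its name is read rightly. They are written as in the names, 5′ to 3′, with capitals for each base of a hexamer that differs from the consensus. First come the sites with the fewest mismatches, at chr8:90491393-90491408 on the plus strand (site 126), chr5:30496954-30496969 on the minus strand (site 360) and chr3:145812074-145812089 on the minus strand (site 705), in mm9 coordinates counted from 1:
site 126: actaggCcagagTtca
site 360: actaggtTaaaggtAa
site 705: gctaggGcaaaggAca

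The sites with the most mismatches were at chr3:30881176-30881191 (site 142) and chr4:45013055-45013070 (site 46), both on the plus strand:
site 142: tctGggCAaaaggGTa
site 46: actGTgATaaaggtcT

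Besides sites 126 and 142, the elements that lost most with dr1 came from chr7:135093083-135093098 (site 322, plus strand), chr3:41089098-41089113 (site 199, plus strand) and chr19:38841002-38841017 (site 100, minus strand):
site 322: tgtGggtAaaagTGca
site 199: acaTgCAcaaaggtca
site 100: ggtaggGcaaaggGGa

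Besides sites 360 and 705, the elements that lost least came from chr14:34124087-34124102 (site 413), chr9:55101544-55101559 (the only site on chromosome 9, called by that below) and chr6:24582318-24582333 (site 246), all on the plus strand:
site 413: agcaAgGcagaggGAa
chromosome 9 site: tcaaAgCcaaaggtGa
site 246: tgtGggGcaaaggGTa

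The starts in the names were taken as counted from 0, since start and end lie 16 apart. Genes around the sites were not assigned. Over all 25 motifs, the base that differed from the consensus most often was the T of the first hexamer, kept at 6 sites, while the last A of that hexamer was kept at 24. The last A of the second hexamer was kept at 23 sites and its T at 15. The spacer was A at 21 sites and G at 4.

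Activity is RNA over plasmid counts on the log2 scale, with both scaled to their library totals, as the median over an element's 20 barcodes, so that 0 is the ratio of the pool's totals. The uniform DR1 gave less activity than the native motif at nearly every site. The dr1 elements averaged -1.42 ± 1.01, mut elements -1.86 ± 0.80 and native elements -0.48 ± 1.34 (mean ± SD over 25 sites). The difference of dr1 minus native was -0.94 ± 0.69, a ratio of 0.523, and dr1 was lower at 24 sites and higher at 1. By a 2-sided sign-flip permutation test over the 25 sites the adjusted p was 2.33e-05, from 1e-05, the smallest p that 100000 permutations can give, adjusted by Benjamini-Hochberg over 7 contrasts.

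Against mut, the dr1 elements were more active on average, by less than they were below native. The difference of dr1 minus mut was 0.45 ± 0.79, a ratio of 1.36, with dr1 higher at 18 sites and lower at 7 (adjusted p = 0.00888, same permutation test). With 1 of 2 random sets of 10 barcodes it was 0.38 and missed the threshold (adjusted p = 0.0616, same permutation test). The mut elements themselves lay -1.38 ± 1.07 from native (ratio 0.384), lower at 23 sites and higher at 2, with an adjusted p of 2.33e-05 by the same test. Activity above 0 was found for 2 dr1 elements, 1 mut element and 8 native elements.

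Single sites were tested over their barcodes, with each of the 1325 other elements of the pool set against its native element by a 2-sided permutation of barcodes (difference of medians, p adjusted by Benjamini-Hochberg over all 1325, call at 0.05). Against native, 14 of 25 dr1 elements fell (56.0%), where 29.4% of all elements did. None rose, either by the adjusted p or at an unadjusted p under 0.05, where 8.0% of all elements were called higher. At an unadjusted p under 0.05, 15 dr1 elements fell. With the barcodes split into 2 random sets of 10, the count of dr1 elements called lower was 9 in one set and 5 in the other. The calls of sites 100, 126, 142 and 638 held in every alternative tried. Among mut elements 20 of 25 were called lower than native (80.0%) and 1 higher.

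Set against mut in the same way, 9 of 25 dr1 elements were called higher (36.0%), where 60.2% of all elements of the pool were. Only the chromosome 9 site was called lower than mut, where 5.74% of all elements were. Native elements were called higher than mut at 20 of 25 sites (80.0%) and lower at 1. In elements that carried the motif of another of the 25 sites, 403 of 600 in the bound0 series (67.2%) and 328 of 600 in the bound5 series (54.7%) were called higher than mut. The share of dr1 elements above mut was lower than in the whole pool, and the share below native higher. Neither gap was tested. Of the 10 calls against mut, 5 held in every alternative tried, those of sites 100, 142, 614, 707 and the chromosome 9 site, and all 10 held outside the sets of 10 barcodes.

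Crossing both calls sorted the 25 sites. At 5 sites (142, 100, 638, 707 and 591) dr1 lay lower than native and higher than mut, between both. At 9 sites (39, 199, 126, 685, 249, 322, 539, 46 and 704) it was lower than native and not called against mut. At 4 sites (614, 92, 413 and 246) it was higher than mut and not called against native. Neither call was made at 6 sites (281, 211, 227, 342, 360 and 705), and the chromosome 9 site was called lower than mut alone. In the whole pool 29.4% of elements were called lower than native, 60.2% higher than mut and 5.74% lower than mut. Only 4 of the 14 calls against native and 5 of the 10 against mut held in every alternative tried, so the sorting depends on the barcodes used.

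The distance between mut and native gives a span on which dr1 can be placed. At the 20 sites where mut was called lower than native, dr1 stood a median of 38.4% of the way from mut to native on the log2 scale. The share ran from -17.4% at site 199, below mut, to 82.6% at site 413. It was under 50% at 14 of the 20 sites and below 0 at 3. At these 20 sites dr1 was called lower than native at 13 and higher than mut at 9, with 5 sites in both sets. Of all elements of the pool, 29.4% were called lower than native and 60.2% higher than mut. The 20 sites were picked by the same native and mut values that set the span and both calls, so these shares and counts are descriptions only.

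The 5 sites with the lowest dr1 minus native lay between -2.26 and -1.65 on the log2 scale, and all 5 were called lower. Site 126, whose motif has only 2 mismatches, lost most. Its dr1 element had 3820 RNA counts on 37786 plasmid counts, its mut element 2951 on 30212 and its native element 12497 on 30082. Activity at site 126 was -1.88 for dr1 (quartiles over barcodes -2.39 and -1.59), -2.46 for mut (-2.92 and -1.31) and 0.38 for native (-0.14 and 0.74). The dr1 and native quartile ranges did not overlap, while those of dr1 and mut did. The difference from native was -2.26 (adjusted p = 0.000368) and that from mut 0.58 (adjusted p = 0.231), by permutation over 20 barcodes each.

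Site 322 had the most active native element of the 25. Its dr1 element held 28194 RNA counts on 53213 plasmid counts, its mut element 20339 on 36908 and its native element 140390 on 57022. Activity there was 0.48 for dr1 (quartiles -0.29 and 0.83), 0.58 for mut (-0.03 and 0.95) and 2.65 for native (2.33 and 2.96). The dr1 element fell to a ratio of 0.222 of native (adjusted p = 0.000382, permutation over 20 barcodes each). It differed from mut by -0.10 (adjusted p = 0.715 by the same permutation test), with quartile ranges that overlapped almost in full. Of all mut elements, that of site 322 was the only one above 0.

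Site 199, whose second hexamer is a full match and whose first has 3 mismatches, gave -2.38 for dr1, -2.07 for mut and -0.27 for native. Its dr1 element was lower than native by a ratio of 0.231 (adjusted p = 0.00534, permutation over 20 barcodes each) and was not called against mut (difference -0.31, adjusted p = 0.684). Sites 100 and 142 also lost much, and were called higher than mut. At site 100 activity was -0.68 for dr1 (quartiles -1.18 and -0.28), -2.03 for mut (-2.59 and -1.75) and 1.42 for native (1.25 and 1.61). These 3 ranges were apart, with dr1 -2.09 from native (adjusted p = 0.000368) and 1.35 from mut (adjusted p = 0.0022, both by permutation over 20 barcodes each). At site 142, with 5 mismatches, activity was -0.90 for dr1 (quartiles -1.09 and -0.58), -2.17 for mut (-3.02 and -1.89) and 0.74 for native (0.49 and 0.96). There dr1 lay -1.65 from native (adjusted p = 0.000368) and 1.27 from mut (adjusted p = 0.000844), by the same permutation test.

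The 5 sites with the highest dr1 minus native lay between -0.31 and 0.28, and none was called. They fell into 2 kinds: sites whose native element was itself among the least active, and sites where dr1 was called higher than mut. Sites 360 and 705, both with 2 mismatches, were of the first kind. At site 360 activity was -2.31 for dr1, -2.98 for mut and -2.60 for native, and it was the only site with dr1 above native (difference 0.28, adjusted p = 0.851, permutation over 20 barcodes each). That difference was -0.03 against the bound5 copy of the native element, so its sign depended on the native copy used. At site 705 activity was -2.57 for dr1, -2.24 for mut and -2.56 for native. Neither mut element was called apart from native there (adjusted p = 0.781 at site 360 and 0.559 at site 705, same permutation test).

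Sites 413 and 246, with 4 mismatches each, were of the second kind. At site 413 activity was -0.54 for dr1 (quartiles -1.28 and -0.21), -1.49 for mut (-1.84 and -1.03) and -0.34 for native (-0.86 and 0.24). At site 246 it was -0.61 for dr1, -1.48 for mut and -0.30 for native. Both dr1 elements were called higher than mut, by 0.95 at site 413 (adjusted p = 0.0134) and 0.87 at site 246 (adjusted p = 0.0179), by permutation over 20 barcodes each. The call at site 413 was lost in both sets of 10 barcodes (adjusted p = 0.0562 and 0.1, same permutation test). That at site 246 was lost in the first set (adjusted p = 0.249, same permutation test) and held in the second. Against native the differences were -0.20 (adjusted p = 0.585) and -0.31 (adjusted p = 0.174), by the same permutation test.

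The largest gain over mut was at site 614. Activity there was -0.26 for dr1 (quartiles -0.87 and -0.06), -2.43 for mut (-2.87 and -1.93) and 0.20 for native (-0.61 and 0.35). The dr1 element stood at 4.50 times mut (difference 2.17, adjusted p = 0.000128, permutation over 20 barcodes each) and was not called against native (difference -0.46, adjusted p = 0.192). Sites 92 and 707 followed sites 100 and 142, with dr1 minus mut of 1.21 (adjusted p = 0.0197) and 1.09 (adjusted p = 0.000543) by the same permutation test. Site 92 is the only one of the 25 with a first hexamer that matches in full, and all 3 of its mismatches are in the second. The call at site 92 depended on the barcodes, with dr1 minus mut of 0.51 (adjusted p = 0.343) in one set of 10 and 1.73 (adjusted p = 0.0491) in the other, by permutation. Activity at site 92 was -1.86 for dr1, -3.07 for mut and -1.48 for native. Its mut element was the lowest of the 25. Site 707 had the most active dr1 element, at 0.49, with -0.60 for mut and 1.23 for native.

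The chromosome 9 site was the only one whose mut element was called higher than native. Activity was -2.89 for dr1 (quartiles -4.15 and -2.37), -1.17 for mut (-1.41 and -0.64) and -2.66 for native (-3.10 and -2.01). The mut element was higher than native by 1.49 (adjusted p = 0.000368), and dr1 was lower than mut by a ratio of 0.303 (difference -1.72, adjusted p = 8.7e-05), both by permutation over 20 barcodes each. The dr1 and native elements of the chromosome 9 site overlapped and were not called apart (difference -0.23, adjusted p = 0.53, same permutation test). They were the least active dr1 and the least active native element of the 25. It was chosen by name, since the native motif of the chromosome 9 site was known from earlier results to lower activity in another pool. The other low values of dr1 minus mut, -0.57 at site 342 and -0.54 at site 704, were not called (adjusted p = 0.224 and 0.0731, same permutation test). Activity at site 342 was -2.62 for dr1, -2.04 for mut and -1.98 for native, and at site 704 it was -2.48 for dr1, -1.94 for mut and -1.61 for native.

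The number of native mismatches showed little relation to the difference between dr1 and native. At the 3 sites with 2 mismatches dr1 minus native averaged -0.66, from -2.26 to 0.28, and 1 site was called lower. It averaged -0.96 ± 0.63 at the 12 sites with 3 mismatches, with 7 called, and -0.90 ± 0.61 at the 8 sites with 4, with 4 called. Both sites with 5 mismatches were called lower, with a mean of -1.32. Over all 25 sites 56.0% of dr1 elements were called lower than native, and 29.4% of all elements of the pool. The groups are small and their differences were not tested. At site 46, the other site with 5 mismatches, activity was -2.02 for dr1, -2.61 for mut and -1.02 for native, and dr1 stood at a ratio of 0.501 to native (adjusted p = 0.0131, permutation over 20 barcodes each).

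As a description over the 25 sites, which share the pair of libraries and their flanking sequence between dr1 and native, mismatches and dr1 minus native had a Pearson r of -0.15 and a Spearman rho of -0.21. Without the 2 sites farthest from the median number of mismatches, r was -0.07. The relation was weak and its sign did not hold, with a rho of 0.0395 in 1 of the 2 random sets of 10 barcodes. Mismatches in the first hexamer had a rho of -0.25 with dr1 minus native, and those in the second a rho of 0.01. All 4 sites with 3 mismatches in the first hexamer (199, 142, 685 and 707) were called lower than native, with a mean of -1.39 ± 0.61. The 2 sites with 4 there (281 and 46) averaged -0.84 with 1 called, near the -0.86 of the 11 sites with 2 and the -0.90 of the 7 with 1. Site 92, the only one with 0, was at -0.38 and not called. The means thus did not fall steadily with the count. For scale, 56.0% of all dr1 elements and 29.4% of all elements of the pool were called lower than native. The calls of sites 199 and 707 were lost in both random sets of 10 barcodes, and that of site 685 in the second set.

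Against mut, dr1 averaged 0.30 at sites with 2 mismatches, 0.28 at sites with 3, 0.63 at sites with 4 and 0.93 at sites with 5. The count of mismatches had a rho of 0.32 with dr1 minus mut, and the count in the second hexamer a rho of 0.46. No dr1 element was called higher than mut at the 3 sites with a full match in the second hexamer (199, 685 and 281). With 1 mismatch there 2 of 10 were, with 2 mismatches 6 of 11, and with 3 the only site (92). Over all 25 sites 36.0% of dr1 elements were called higher than mut, and 60.2% of all elements of the pool. The groups are small and their differences were not tested. Activity tended to be higher at sites with more mismatches. The rho with mismatches was 0.44 for the dr1 level, 0.26 for mut and 0.37 for native. The means did not rise steadily, and at the 2 sites with 5 mismatches they lay below those at the 8 sites with 4. They were -1.46 against -0.69 for dr1, -2.39 against -1.32 for mut and -0.14 against 0.21 for native. Mismatches and native activity were thus not separate.

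Native activity had a larger correlation with the loss than mismatches did. So that the same native barcodes did not enter both sides, the native element of the bound5 series was used. It had the same motif and site and its own barcodes. Its level had an r of 0.98 with the bound0 copy, so the native level of a site still entered both sides. The mismatch count shares no such term, so the sizes of these correlations are not on equal terms. What bound0 and bound5 mean is not given by the names. The bound5 native level and dr1 minus native had an r of -0.68 and a rho of -0.64 over the 25 sites. Its level at the 14 sites where dr1 was called lower ran from -1.85 to 2.39, with a median of 0.37. At the 11 other sites it ran from -2.77 to 0.34, with a median of -0.75. Of the 8 sites whose bound0 native element was above 0, dr1 was called lower at 7, and of the other 17, at 7. The bound0 native values enter that last comparison on both sides. Among all 25 dr1 elements 56.0% were called lower than native, and among all elements of the pool 29.4%. The pool share was not split by native activity. The barcode SD of the native element ran from 0.46 (site 142) to 0.92 (site 591) at the 8 sites. It ran from 0.63 (site 39) to 1.35 (site 46) at the other 17. These ranges overlapped, and the change needed for a call was not computed for either set of sites.

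Native elements of the same sites in other pools ran the same way. Pool 1 native activity and dr1 minus native had an r of -0.70, and pool 4 native activity an r of -0.62, each over 25 sites. Levels are on the scale of each pool. The median native activity in pool 4 was 0.95 at sites where dr1 was called lower and -0.73 at the others, and in pool 1 it was 2.66 where dr1 was called lower and 1.06 at the others. The loss from mut in pool 4 (mut minus native) had an r of 0.66 with dr1 minus native of pool 2. Each of these activity comparisons has native activity of the same site on both sides, measured in different pools. Some relation can arise from that shared term alone. Pool 1 also had PPARγ ChIP and input counts for the plasmids, and its binding (log2 of ChIP over input) had values for 23 of the sites. Native binding had an r of 0.34 and a rho of 0.26 with dr1 minus native. Its median was 0.50 at 13 sites where dr1 was called lower and 1.34 at 10 where it was not, with ranges that overlapped (-0.24 to 2.84 where called and 0.05 to 2.61 where not). No binding to the dr1 elements was analysed here.

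The level of the dr1 elements moved with that of most other forms at their sites. It had a rho of 0.48 with mut (r 0.64, and 0.44 without the 2 sites farthest from the median), 0.85 with native (r 0.86) and 0.94 (r 0.94) with the mean of the elements that carried the other 24 motifs at the site in the bound0 series. The dr1 level ran over 25 sites from -2.89 at the chromosome 9 site to 0.49 at site 707, although the motif, by its name, was the same at each. The rho was 0.79 (r 0.83) with the elements named ctrl5 and -0.14 (r -0.10) with those named ctrl, whose contents the names do not give either.

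The pool also held every one of the 25 native motifs at every site, in a bound0 and a bound5 series. In each series that gives 24 natural motifs from other sites to set beside the uniform DR1 at the same site. Of these elements, 600 in each series, 8 in all had mod in their names. What differs between the series is not given by the names. The dr1 elements differed from the mean of these 24 by -0.76 ± 0.41 in the bound0 series, lower at 24 of 25 sites (adjusted p = 2.33e-05), and by -0.51 ± 0.54 in the bound5 series, lower at 19 of 25 sites (adjusted p = 7e-05), by the sign-flip permutation test over sites. Both contrasts use the same dr1 elements as dr1 minus native, so they are not independent of it. With that limit, the lower activity with dr1 was found against natural motifs taken from other sites as well as against a site's own. For scale, 126 of 600 such elements of the bound0 series (21%) and 202 of 600 of the bound5 series (33.7%) were themselves called lower than the native element.

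Within a site, a median of 22 of the 24 motifs gave more activity than dr1 in the bound0 series, from 13 at sites 705 and 360 to all 24 at sites 249, 322, 92 and 704. That was 525 of 600 pairs (87.5%). In the bound5 series the median was 20, from 5 at sites 360 and 413 to 24 at the chromosome 9 site, and 440 of 600 pairs (73.3%). At least 20 of the 24 motifs were above dr1 at 20 of 25 sites in bound0 and at 14 of 25 in bound5. In bound5, 4 sites had fewer than 12 above it (360, 413, 249 and 539).

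Each motif was also averaged over the 24 sites it does not come from and set against dr1 at the same 24 sites. By that mean, 23 of the 25 motifs gave more activity than dr1 in the bound0 series, and 20 of 25 in the bound5 series. In bound0 the exceptions were the motifs of site 413 and of the chromosome 9 site, with means of -1.61 and -1.41. There dr1 lay 0.16 ± 0.60 from the motif of site 413 and 0.05 ± 0.81 from that of the chromosome 9 site. In bound5 those differences were 0.65 ± 0.68 and 0.84 ± 0.86.

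The 3 motifs that come closest to the consensus, shown at the start, gave more activity than dr1. In the bound0 series dr1 lay -0.96 ± 0.55 from the motif of site 126, lower at 23 of 24 sites, -0.84 ± 0.65 from that of site 360, lower at 23, and -0.84 ± 0.56 from that of site 705, lower at 24. In the bound5 series the differences were -0.81 ± 0.87, -0.22 ± 0.52 and -0.83 ± 0.76, with dr1 lower at 20, 17 and 21 sites. The motifs of sites 360 and 705 thus gave more activity than dr1 at other sites, and at their own sites native and dr1 elements were both low. Mean activity at foreign sites was -0.50 for the 3 motifs with 2 mismatches, -0.69 for the 12 with 3, -0.68 for the 8 with 4 and -0.61 for the 2 with 5, in bound0. Over the 25 motifs, mismatches and mean foreign activity had a rho of -0.11 in bound0 and -0.22 in bound5, so among natural motifs at fixed sites the relation was weak too.

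Elements named ctrl and ctrl5 were a further pair of forms at each site. The dr1 elements were higher than ctrl by 1.06 ± 1.21, at 20 of 25 sites (adjusted p = 0.000154), and differed from ctrl5 by -0.50 ± 0.73, lower at 20 of 25 sites (adjusted p = 0.00255), by the sign-flip permutation test. Levels averaged -1.42 ± 1.01 for dr1, -2.48 ± 0.57 for ctrl and -0.91 ± 1.30 for ctrl5. Since the contents of these forms are not given, the values are set down without a reading.

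The 2 native elements of each site measure how far elements of the same site and motif vary. The bound5 copy minus the bound0 copy was 0.11 ± 0.29 over 25 sites, from -0.51 at site 539 to 0.76 at site 211, with an r of 0.98 between the copies and no site called. One copy was lower at an unadjusted p under 0.05 and none higher. The difference of dr1 minus native lay below the lowest of these copy differences at 18 of 25 sites, and its size was larger than that of the site's own copies at 21. So at most sites the loss with dr1 was larger than the spread between native elements.

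The 3 forms had like plasmid depths. Plasmid counts per element had a median of 35890 for dr1 (from 2339 at site 227 to 79195), 30212 for mut (from 11650) and 30630 for native (from 4055), and 20 of 20 barcodes passed the minimum of 20 plasmid counts in each of these elements. RNA counts had a median of 3820 for dr1, 3243 for mut and 9769 for native. Barcodes within an element spread widely, with a median SD of 0.95 for dr1, 1.06 for mut and 0.99 for native on the log2 scale, which sets how large a change at a single site had to be to be called. At site 227, with the fewest plasmid counts, activity was -0.91 for dr1 and -0.02 for native, a difference of -0.88 that was not called (adjusted p = 0.122, permutation over 20 barcodes each).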

How the data were processed

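The deposited files held raw read counts per barcode, 20 barcodes for each of 1350 elements in pool 2, per the file headers. The submitters' processing notes name mm9 and BWA 0.7.12. How barcodes were counted is not given in the sources used here. Columns were barcodes of 1 library each, and 0 columns were left unmapped. RNA and plasmid counts, with a pseudocount of 1, were scaled to library totals. Activity was the median log2 ratio over barcodes whose plasmid count was 20 or more, which 32 barcodes of pool 2 missed. Contrasts were tested by 100000 sign flips over sites and single elements by 100000 permutations of barcodes, both 2-sided, with Benjamini-Hochberg adjustment and a threshold of 0.05. No molecular identifiers are named in the labels, so depth covers counting error only. Sites given in full were the 5 lowest and 5 highest in dr1 minus native, the 5 highest and 3 lowest in dr1 minus mut, those with fewest and most mismatches, and the site on chromosome 9. The 8 sites tied at 4 mismatches were too many to name all under that rule. The members, lists and tests were chosen with earlier results of these data known. Python 3.11.15, numpy 2.4.6 and pandas 2.3.3 were used, and the procedures were tested on simulated data. Activity in pools 1 and 4 was computed alike, and pool 1 binding from its deposited ChIP and input counts. ChIP of pool 2 is not analysed here. Alternatives covered the pseudocount, count minimum, barcode summary, scaling, native copy and consensus.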

Additional observations from a re-analysis of the deposited data

How the results depend on the processing

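Over 14 alternatives, of which 12 altered its value, dr1 minus native ran from -1.05 to -0.87 and passed the threshold in each by the sign-flip permutation test. The difference of dr1 minus mut ran from 0.32 to 0.58, with 10 of 14 altering it, and missed the threshold only with the second of 2 random sets of 10 barcodes (0.38, adjusted p = 0.0616 by the same permutation test). The contrasts of dr1 with foreign motifs, ctrl and ctrl5 kept sign and call in the alternatives that can alter them (11 each for ctrl and ctrl5, 12 for each series of foreign motifs). Scaling cancels in these differences and the native copy does not enter them. Leaving out elements named mod was chosen after seeing the data. Calls at single sites varied with the barcodes used: with 10 barcodes, 9 and 5 sites were called lower than native, against 14 with 20. Fewer barcodes and the choice of barcodes were not told apart. Outside these sets the count was 14 to 16, and 12 of the 14 sites kept their call in each (sites 539 and 704 did not). In all alternatives 4 sites kept it (100, 126, 142 and 638). Sites called higher than mut numbered 6 to 11, and sites called higher than native 0. Without the site on chromosome 9, 0 sites were lower than mut. The rho of mismatches and dr1 minus native was 0.04 (0.0395) in the second set of barcodes. No called site changed sign. Uncalled differences did: dr1 minus native at site 360 with the bound5 native copy (-0.0306) and the second set (-0.0865), at the chromosome 9 site (0.0543) and at sites 614 (0.358) and 705 (0.367) with the first, and dr1 minus mut at sites 126 (-0.0287) and 249 (-0.0369) with barcode means and 322 (0.173) with the second set. Their cause was not tested. The alternative with bases before the first hexamer compared only the 3 in the motif, and summed counts gave no test at single sites. No paired analysis was possible because each group had 1 library, so no replicates could be paired. The contrasts themselves pair forms by site.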
